A study of Mus musculus with 12 samples.

Results

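The cytosolic ribosomal protein genes of mouse embryonic stem cells are described here across 12 RNA-seq libraries. Members were chosen by gene symbol alone: Rpl or Rps followed by a number and at most a final a or x, plus Rplp0, Rplp1, Rplp2 and Rpsa, with pseudogenes left out. The rule found 76 genes among the 20347 genes of the authors' comparison table, and all 76 passed the filter on low counts that left 21053 of the 52661 genes of the count table for testing. All cells were CGR8 embryonic stem cells, an established mouse line grown in serum with LIF, and all groups carried the ppy-cagg-ires-puro vector by stable transfection, which gives puromycin resistance. The vector encoded wild-type netrin-1 in the netrin-1 WT group, a point mutant of its interaction with the receptor Unc5B in the unc5B MUT group, a point mutant of its interaction with neogenin in the neo1 MUT group, and no insert in the control group. Each group had 3 libraries, numbered 1 to 3 in the labels, which do not say what a number marks or whether 1 group's libraries stem from different cultures, clones or pools, so p-values measure only the spread between these libraries.

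The ribosome of the cytosol is built from a small subunit, whose proteins are the Rps gene products, and a large subunit, whose proteins are the Rpl gene products, each around its own ribosomal RNA. A single copy of nearly every protein is needed for each ribosome, and many of the mRNAs begin with a run of pyrimidines, the terminal oligopyrimidine or TOP element, through which the mTOR pathway sets their translation. Because these mRNAs are abundant and short, the mouse genome holds many reverse-transcribed copies of them, the processed pseudogenes, and reads from a ribosomal protein mRNA can match such a copy as well as the gene.

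Library totals ran from 22256195 to 24736421 counts in the 4 libraries numbered 3 and from 32370919 to 59735737 in the 8 libraries numbered 1 and 2. Netrin-1 mRNA (Ntn1) had 76.9 to 288 CPM (counts scaled to a common library total) in netrin-1 WT, 34.9 to 322 in unc5B MUT, 56.5 to 219 in neo1 MUT and 0.775 to 15.4 in control libraries, with the lowest library of every group numbered 3. The 10 stem cell markers summed to between 3476 and 4736 CPM in every library. The 8 fibroblast markers, which feeder cells would bring, summed to at most 24.1 CPM. The 8 primitive endoderm markers did follow the groups: their sum was 43.9 to 54.5 CPM in netrin-1 WT, 205 to 255 in unc5B MUT, 33.4 to 88.1 in neo1 MUT and 363 to 457 in control libraries. In bulk RNA, fewer cells of a type and less RNA per cell cannot be told apart.

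Together the 76 genes held 5.51% ± 0.36 of all counts in netrin-1 WT, 5.97% ± 0.20 in unc5B MUT, 5.92% ± 0.26 in neo1 MUT and 5.77% ± 0.21 in control cells (SD, n = 3 each). Single libraries ranged from 5.10% in netrin-1 WT 3 to 6.14% in unc5B MUT 1, and every group overlapped the control group. Levels per kilobase use the length of 1 annotated coding transcript per gene, picked without regard to its abundance. The highest mean levels over the 12 libraries were those of Rpl8, at 2886 CPM per kb, Rplp1, at 2501, Rpl13a, at 2330, and Rpl18, at 2304. Rpl13a and Rpl18 owed that place to the libraries numbered 3, where they averaged 3791 and 4898 CPM per kb, against 1599 and 1007 in the other 8. In those 8 libraries the 4 highest were Rpl8, at 2938 CPM per kb, Rplp1, at 2538, Rpl13, at 2410, and Rps14, at 2098. Rpl8 lies at the peptidyl transferase centre, Rplp1 is a protein of the acidic stalk that binds elongation factors, and Rpl13a and Rpl18 are further proteins of the large subunit. The lowest over the 12 libraries were Rpl5, at 35.3 CPM per kb, Rpl12, at 76.7, Rps13, at 93.0, and Rps12, at 128. The transcripts taken for Rpl5 and Rpl12 have 2045 and 1242 bases, of which 891 and 495 are coding. A longer transcript lowers the value per kb. Rpl5 carries the 5S ribosomal RNA into the large subunit and, with Rpl11, binds the p53 regulator Mdm2.

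The lowest genes named above, Rpl5, Rpl12, Rps13 and Rps12, have copies and no unique stretch of 100 coding bases. Some genes at high levels have copies and lack such a stretch too. Among these, Rpl13 averaged 2410 CPM per kb and Rpl23a 1468 CPM per kb in the libraries not numbered 3. In those libraries, copies held 0.134% of the counts of gene and copies for Rpl13 and 0.479% for Rpl23a. They held 93.2% for Rpl12, 93.6% for Rps13 and 95.2% for Rps12. The part of the copies in the low levels was not tested. Rpl5 averaged 59.1 CPM in the libraries numbered 3 and 78.6 CPM in the others, while its near-identical copies held 1383 and 1411 CPM, so that 95.9% and 94.7% of the counts of gene and copies stood on the copies. A search of the coding sequences against all annotated mouse transcripts found 975 copies of members (identity of at least 90% over at least 50% of the coding sequence), of which 930 were annotated as processed pseudogenes. All but 3 members had at least 1 copy, Rpl8 being among those with none, and for 24 members not a single stretch of 100 coding bases was unique. With the counts of copies added to those of their gene, the mean level of Rpl5 was 720 CPM per kb and that of Rps12 was 1883. The standard deviation of the log2 level per kb over the 76 members lay between 1.30 and 1.47 within a library for the genes alone and between 0.68 and 0.81 with their copies. Values of a single member with copies are therefore uncertain, since the counting could place a read on the gene or on a copy.

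The comparison of each netrin-1 group with control cells asks what netrin-1 and its point mutants did to the transcriptome. There, no member passed an adjusted p of 0.05 by edgeR's quasi-likelihood test without the replicate number in the model. Over all genes that fit called 0.0997% in netrin-1 WT, 0% in unc5B MUT and 0.128% in neo1 MUT, and 1, 0 and 1 members had an unadjusted p under 0.05. Libraries of different groups with the same number resembled each other, but those numbered 1 and 2 resembled each other nearly as much. The resemblance thus mainly sets number 3 apart and does not show a pairing within numbers 1 and 2. With the number as a block the test called 2 members lower in netrin-1 WT, Rpl8 and Rpl27, against 3.50% of all genes (1.76% lower). It called none in unc5B MUT against 0.0285% of all genes, with 3 members at an unadjusted p under 0.05, and 1 member in neo1 MUT, again Rpl8 and lower, against 5.26% of all genes. These are 2 and 1 of 76 members, and no test was made of their share against that of all genes.

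**Figure D1:**
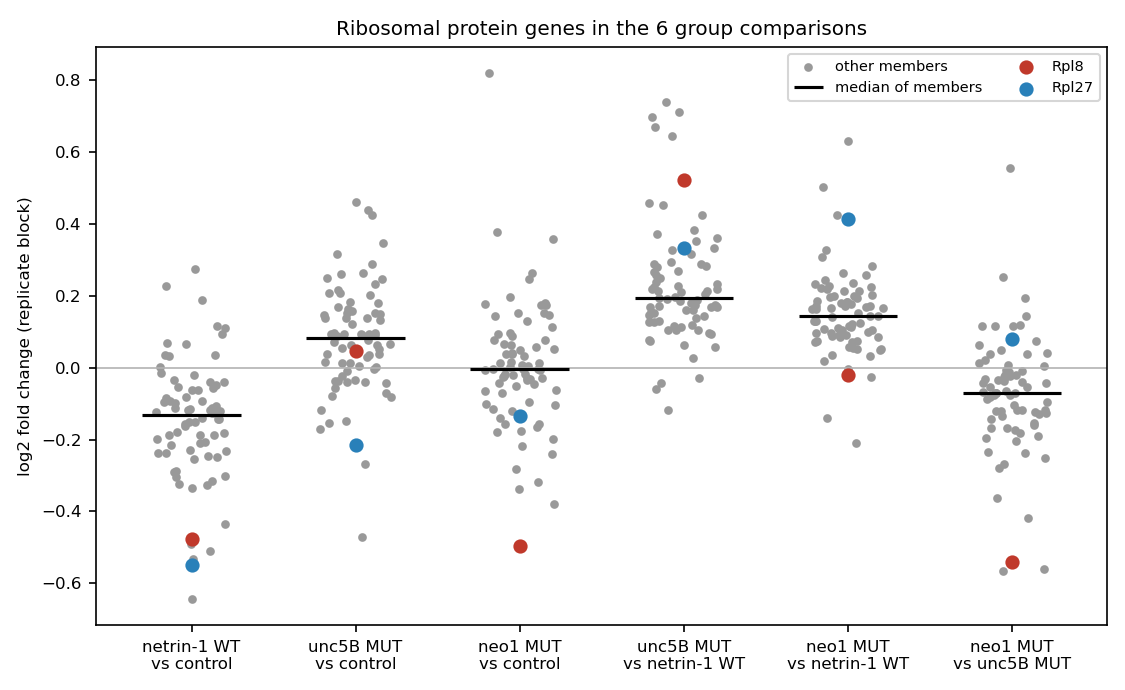
Log2 fold change, from the fit with the replicate block, of each ribosomal protein gene (points) in the 6 group comparisons, with the median of the members as a line and Rpl8 and Rpl27 coloured. Rpl8 lay at -0.48 in netrin-1 WT and -0.50 in neo1 MUT against control, and at 0.05 in unc5B MUT against control.

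Rpl8 separated the groups. It had 1979, 2034 and 2102 CPM in netrin-1 WT libraries 1, 2 and 3, 3088, 2925 and 2780 in those of unc5B MUT, 2066, 1989 and 1978 in those of neo1 MUT, and 3020, 2902 and 2603 in control libraries. All netrin-1 WT and neo1 MUT libraries were below all unc5B MUT and control libraries, and unc5B MUT overlapped control. With the block, the log2 fold change was -0.48 ± 0.08 in netrin-1 WT against control (SE, edgeR adjusted p = 0.0130), -0.50 ± 0.08 in neo1 MUT against control (adjusted p = 0.00995) and 0.05 ± 0.08 in unc5B MUT against control (adjusted p = 0.99985). Without the block the first and second of these adjusted p-values were 0.623 and 0.471. Rpl8 also was the 1 member called between unc5B MUT and netrin-1 WT, higher in unc5B MUT with a log2 fold change of 0.52 ± 0.08 (edgeR with the block, adjusted p = 0.0149, 1.97% of all genes called), and the 1 called between neo1 MUT and unc5B MUT, lower in neo1 MUT at -0.54 ± 0.08 (adjusted p = 0.00809, 4.87% of all genes called); without the block neither passed (adjusted p = 0.758 and 0.436, with 0% and 0.133% of all genes called). Between neo1 MUT and netrin-1 WT the log2 fold change of Rpl8 was -0.02 ± 0.08 (adjusted p = 0.947), and no member was called between them with or without the block, against 1.99% and 0.0760% of all genes and with 4 and 0 members at an unadjusted p under 0.05.

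The call for Rpl8 with the block rested on few libraries. In netrin-1 WT against control it was lost without netrin-1 WT replicate 1 (edgeR adjusted p = 0.0823) or 2 (0.0672) and without control replicate 1 (0.0817) or 2 (0.0648), and in neo1 MUT against control without control replicate 1 (0.0646). The fold change stayed between -0.54 and -0.42 in netrin-1 WT and between -0.55 and -0.47 in neo1 MUT in these fits. Between unc5B MUT and netrin-1 WT the call held only without netrin-1 WT replicate 3 (0.00501), and between neo1 MUT and unc5B MUT it was lost without unc5B MUT replicate 1 (0.0736) or 2 (0.0520). In the authors' deposited table, Rpl8 was at -0.48 in netrin-1 WT against control (adjusted p = 0.00220) and -0.50 in neo1 MUT against control (adjusted p = 0.00232), and Rpl27 was the other member called in netrin-1 WT, with 4.42% and 5.52% of all genes called in that table. The authors' deposited table also called Rpl8, Rpl5 and Rpl21 between unc5B MUT and netrin-1 WT, all higher in unc5B MUT (3.07% of all genes), and Rpl8 alone of the members between neo1 MUT and unc5B MUT (6.36%).

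Rpl8 is on chromosome 15, and many genes of that chromosome also were lower in netrin-1 WT and neo1 MUT. Over the 400 genes of chromosome 15 above 10 CPM, the median log2 fold change was -0.34 in netrin-1 WT, 0.04 in unc5B MUT and -0.44 in neo1 MUT against control. The medians of the other 19 chromosomes lay between -0.11 and 0.06, between -0.05 and 0.19, and between -0.07 and 0.05 in these 3 comparisons. Chromosome 15 gave 7.33% of its 805 tested genes as lower in netrin-1 WT and 16.025% in neo1 MUT. Over all 21053 genes, 370 and 694 were called lower in these comparisons. The chromosome 15 median was 0.36 in unc5B MUT against netrin-1 WT, with the other chromosomes between -0.11 and 0.19. In neo1 MUT against unc5B MUT it was -0.49, with the other chromosomes between -0.17 and 0.07. Between neo1 MUT and netrin-1 WT, where Rpl8 was at -0.02, the chromosome 15 median was -0.12, with the other chromosomes between -0.05 and 0.07. The other members on chromosome 15 are Rpl3, Rpl30 and Rpl37, all of the large subunit. In netrin-1 WT against control they were at -0.30 ± 0.15, -0.49 ± 0.30 and -0.53 ± 0.20, and in neo1 MUT at -0.10 ± 0.15, -0.32 ± 0.31 and -0.38 ± 0.20 (SE, fit with the block), and none passed the test. Unlike Rpl8, all 3 have copies and varied between libraries of the same group. The primitive endoderm markers given above were lower in netrin-1 WT and neo1 MUT too, but also in unc5B MUT than in control libraries, where Rpl8 overlapped. The part of that shift or of chromosome 15 in the level of Rpl8 was not tested.

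**Figure D2:**
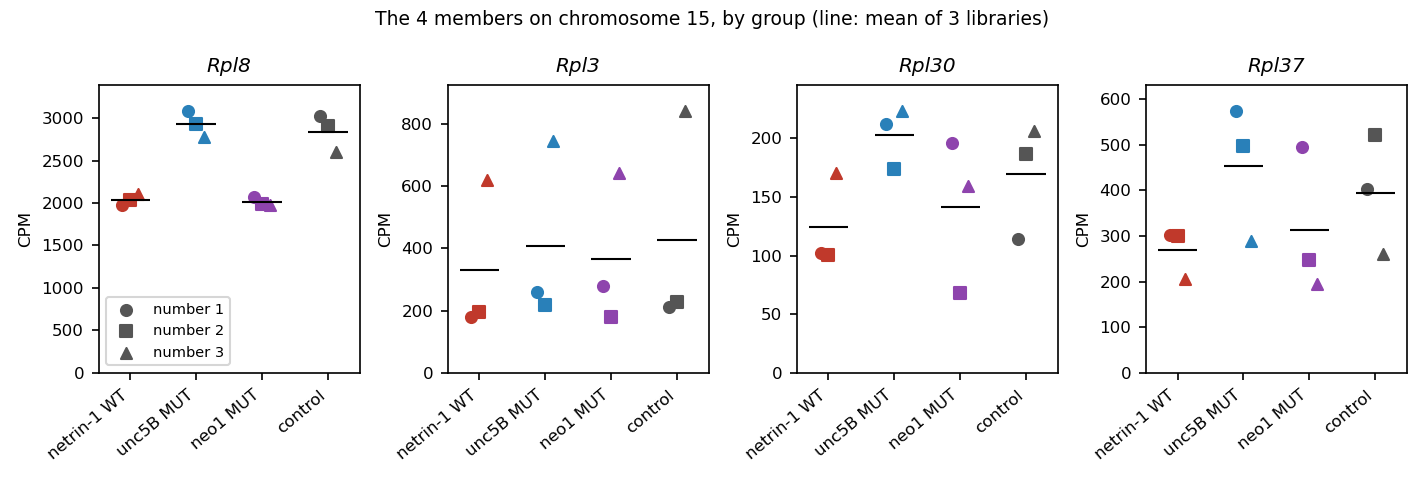
CPM of the 4 ribosomal protein genes on chromosome 15 in every library, by group, with the mean of 3 libraries as a line and the replicate number as the symbol. Rpl8 lies between 1978 and 2102 CPM in the libraries of netrin-1 WT and neo1 MUT and between 2603 and 3088 CPM in unc5B MUT and control, while the other 3 genes overlap between each netrin-1 group and control.

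Rpl27, a protein of the large subunit, was called lower in netrin-1 WT with the block (log2 fold change -0.55 ± 0.11, edgeR adjusted p = 0.0261; adjusted p = 0.99998 without it). It had 81.6, 72.8 and 385 CPM in netrin-1 WT libraries 1, 2 and 3, against 115, 95.0 and 656 CPM in control libraries. Each netrin-1 WT library was below the control library of its number, but the groups overlapped. With the counts of its 10 copies added, the difference was -0.22 ± 0.10 and did not pass (adjusted p = 0.287). With copies added, Rpl8 remained called in the same 4 comparisons, and Rps27 was called higher in unc5B MUT than in netrin-1 WT (0.46 ± 0.09, adjusted p = 0.0314). That fit called 3.73% of all genes in netrin-1 WT and 5.45% in neo1 MUT against control, 2.09% in unc5B MUT against netrin-1 WT and 5.14% in neo1 MUT against unc5B MUT.

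The median over members was small in the comparisons with control. This log2 fold change with the block was -0.13 in netrin-1 WT, 0.08 in unc5B MUT and 0.00 in neo1 MUT against control, where the median of all genes was 0.01, 0.02 and 0.02. In netrin-1 WT 64 of 76 members were below 0, against 50.7% of all genes above 0, and 27 members were below 0 in all 3 numbers and none above 0 in all 3. In unc5B MUT 56 members were above 0 (52.8% of all genes), and in neo1 MUT 36 (51.6% of all genes). Against netrin-1 WT, the median was 0.19 in unc5B MUT, with 72 of 76 members above 0 (51.1% of all genes). In neo1 MUT it was 0.14, with 71 above 0 (51.7% of all genes). Taken number by number, the netrin-1 WT median against control was -0.05, -0.06 and -0.29 in numbers 1, 2 and 3. In the same order, that of unc5B MUT was 0.18, 0.01 and -0.01, and that of neo1 MUT was 0.14, -0.16 and -0.03. The unc5B MUT median against netrin-1 WT was 0.23, 0.07 and 0.31 in numbers 1, 2 and 3, and the neo1 MUT median against netrin-1 WT was 0.19, -0.07 and 0.32, with both signs. Members whose 3 libraries did not overlap the 3 control libraries were few: Rpl8, Rpl21 and Rps4x lower in netrin-1 WT (9.25% of all genes did not overlap in either direction), Rplp1, Rps7 and Rps15 higher in unc5B MUT (4.38%), and Rpl8 lower in neo1 MUT (11.3%).

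The members with known roles outside the ribosome did not pass in any comparison with control. Rps6, the substrate of S6 kinase, had 862 ± 470 CPM in netrin-1 WT, 903 ± 384 in unc5B MUT, 877 ± 378 in neo1 MUT and 964 ± 320 in control cells (SD, n = 3 each). Rpsa, which also is the laminin receptor precursor, had 1970 ± 1102, 2284 ± 1441, 2367 ± 1615 and 2182 ± 1482 CPM in the same order of groups. Rps27a, which is made as a fusion with ubiquitin, had 608 ± 53.1, 746 ± 113, 677 ± 165 and 773 ± 160 CPM. Rpl11 had 575 ± 308 CPM in netrin-1 WT, 665 ± 346 in unc5B MUT, 656 ± 429 in neo1 MUT and 453 ± 119 in control cells. Rpl22, Rpl41, the smallest ribosomal protein, and the stalk proteins Rplp0, Rplp1 and Rplp2 had log2 fold changes between -0.25 and 0.32 in all 3 comparisons with control (fit with the block). Within each group the library numbered 3 was the lowest for Rps6 and the highest for Rpsa and Rpl11. With the block, the log2 fold change of Rpl5 against control was -0.24 in netrin-1 WT, 0.22 for unc5B MUT and -0.06 for neo1 MUT. That of Rpl13a was 0.07, 0.35 and 0.18 in the same order.

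The replicate number went with larger differences in the members than the netrin-1 groups did. In a model with group and number, the libraries numbered 3 differed from those numbered 1 and 2 in 62 of 76 members by edgeR's quasi-likelihood test, 38 higher and 24 lower. Over all genes 62.8% were called, 31.8% higher and 31.0% lower, so the members' share of 81.6% stands beside a change of most of the transcriptome. All 4 libraries numbered 3 lay outside the range of the other 8 in 47 members, against 38.9% of all genes. Of all 76 members, 64 had 1 sign in all 4 groups, among them the 62 called. As those were chosen by a contrast taken over the 4 groups, their shared sign adds no support to the calls. The median over members was 0.26 (all genes -0.04), and single members ran from -2.38 to 2.80. Between numbers 2 and 1, no member and 0% of all genes were called by the same test, with 5 members and 2500 genes at an unadjusted p under 0.05, and the median over members was -0.11.

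**Figure D3:**
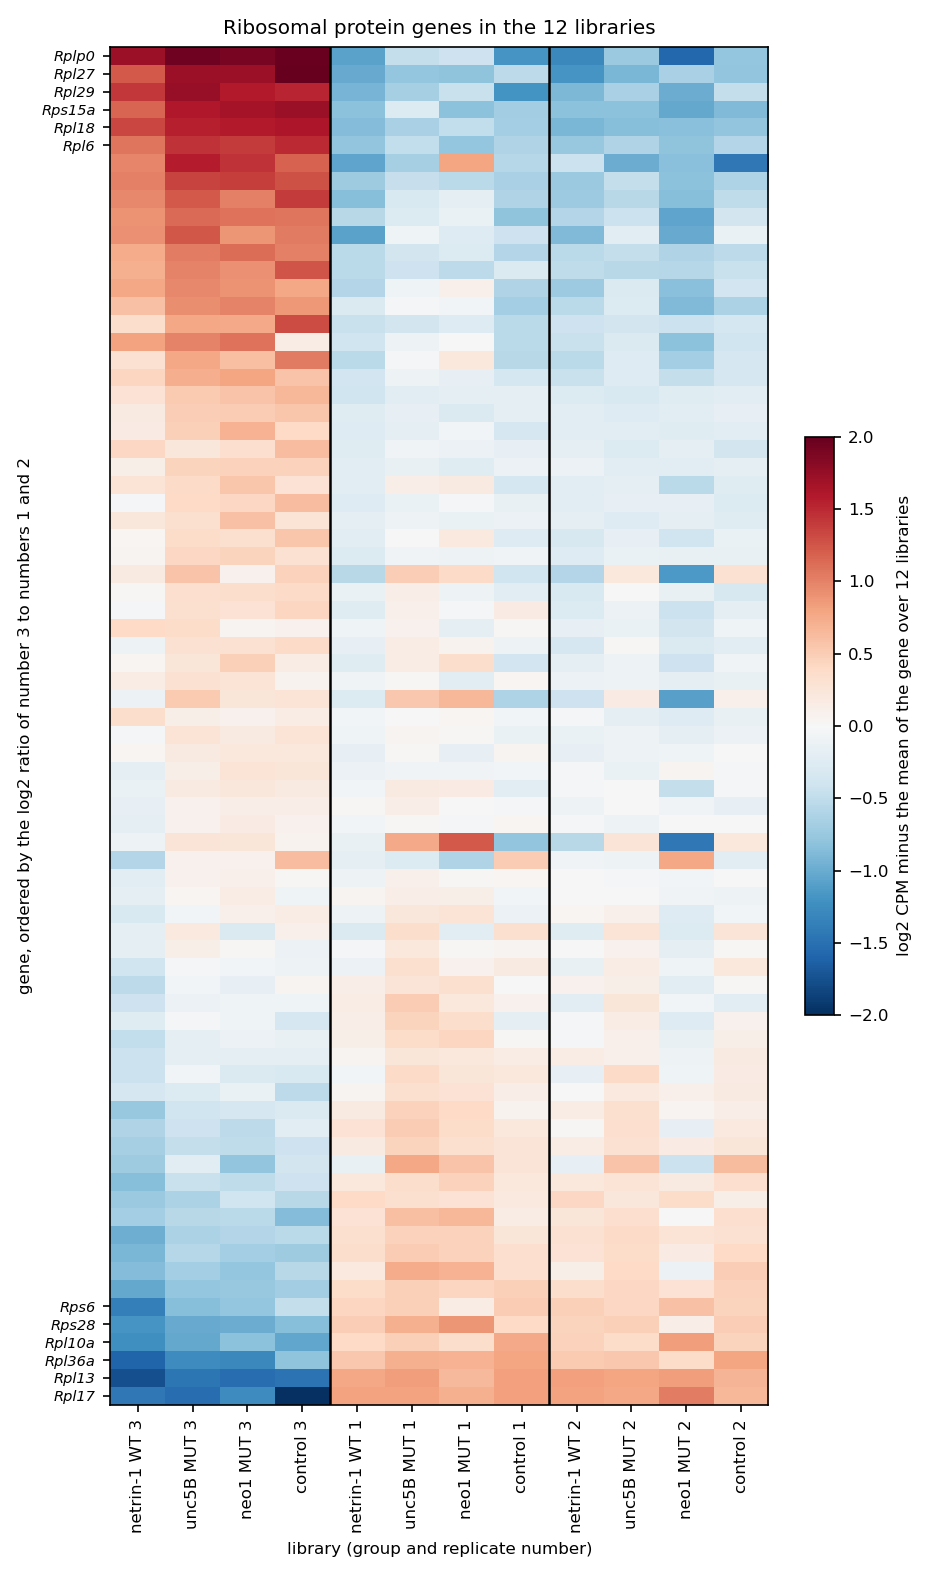
Log2 CPM of the 76 ribosomal protein genes minus the gene's mean over the 12 libraries (colour), with the 4 libraries numbered 3 at the left, followed by those numbered 1 and 2. The 6 highest and 6 lowest called genes are labelled, and genes are ordered by the log2 ratio of number 3 to numbers 1 and 2, which runs from 2.80 for Rplp0 to -2.38 for Rpl17.

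Rplp0, the base of the stalk and a common reference gene for quantitative PCR, rose most. It had 1185, 1384, 1344 and 1414 CPM in the number 3 libraries of netrin-1 WT, unc5B MUT, neo1 MUT and control, against 121 at the lowest, 191 at the median and 269 at the highest of the 8 other libraries (log2 fold change 2.80 ± 0.16, edgeR adjusted p = 8.41e-08). Rpl27 followed at 2.49 ± 0.08, Rpl29 at 2.33 ± 0.13, Rps15a at 2.31 ± 0.11, Rpl18 at 2.28 ± 0.06 and Rpl6 at 2.03 ± 0.07. Rpl6 reached 3898 to 5222 CPM in number 3 and 1060 to 1318 CPM in the others. The largest falls were those of Rpl17, at -2.38 ± 0.14, and Rpl13, at -2.32 ± 0.09. Rpl13 had 326, 402, 382 and 394 CPM in the number 3 libraries, against 1715, 1911 and 1968 CPM at the lowest, median and highest of the others (adjusted p = 3.06e-09). Rpl36a, Rpl10a, Rps28 and Rps6 fell too, with log2 fold changes of -1.86, -1.55, -1.51 and -1.29. In each of these 12 genes the 4 number 3 libraries did not overlap the other 8.

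Of the other members, some were near 0 and others rose or fell. Rpl8 was at -0.07 ± 0.06 (adjusted p = 0.383), Rplp1 at -0.07 ± 0.07 (adjusted p = 0.438) and Rpl22 at -0.04 ± 0.11 (adjusted p = 0.762), all by edgeR's quasi-likelihood test. Rplp2 rose by 0.32 ± 0.12 and Rps27a by 0.37 ± 0.08, both with overlap between the libraries. Rpl5 and Rpl41 fell, with log2 fold changes of -0.40 and -0.27. Rpl11 rose by 1.13 ± 0.14, Rpl13a by 1.26 ± 0.12 and Rpsa by 1.46 ± 0.07.

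Copies of several genes that fell carried the opposite change. Gm12918 is a processed pseudogene at chr4:10848420-10849055 (GRCm38, plus strand) whose sequence matches the whole coding sequence of Rpl13 without a mismatch. It held 1297, 1497, 1529 and 1171 CPM in the number 3 libraries of netrin-1 WT, unc5B MUT, neo1 MUT and control, and was at 0 in all 8 others. A stretch of the coding sequence is shown for 3 genes and a copy of each, to make visible how little there is to tell a read of the gene from a read of the copy. The stretches are coding bases 287 to 346 of Rpl13 (chr8:123103223-123103282, plus strand) and of Gm12918 (chr4:10848706-10848765), 156 to 215 of Rpl37a (chr1:72712165-72712224, plus strand) and of Gm4149 (chr13:75645051-75645110), and 388 to 447 of Rplp0 (chr5:115561168-115561227, plus strand) and of Gm8730 (chr8:102865352-102865411, minus strand), from GENCODE M21 transcripts on GRCm38, counted from the first coding base, with bases that differ in capitals:
Rpl13: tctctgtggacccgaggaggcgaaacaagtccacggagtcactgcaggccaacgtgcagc
Gm12918: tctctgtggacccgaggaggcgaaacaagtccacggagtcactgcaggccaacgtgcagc
Rpl37a: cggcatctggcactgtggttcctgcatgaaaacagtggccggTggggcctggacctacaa
Gm4149: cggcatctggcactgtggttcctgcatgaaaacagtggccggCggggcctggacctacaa
Rplp0: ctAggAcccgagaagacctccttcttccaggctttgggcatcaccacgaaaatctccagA
Gm8730: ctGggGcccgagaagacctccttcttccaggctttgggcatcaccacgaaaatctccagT

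Gm4149 differs from the coding sequence of Rpl37a only by T198C (the gene's base, its coding position, the copy's base), and averaged 584 CPM in number 3 and 0.604 CPM in the others. Gm8730 differs from Rplp0 at 12 bases and averaged 618 CPM in number 3 and 175 CPM in the others, so here gene and copy both were higher. A pair of further copies without a mismatch were Gm10443 of Rps28, at 1197 and 58.3 CPM, and Rps6-ps4 of Rps6, at 1115 and 29.6 CPM. The direction was not the same for all copies: Rps12-ps3, identical to the coding sequence of Rps12 and annotated as protein-coding, averaged 441 CPM in number 3 and 1108 CPM in the others. Among the copies that averaged over 10 CPM, 32 were over 10 CPM in number 3 and under 1 CPM in the others, and 2 were the reverse. Copies held 1.999% to 2.31% of all counts in the number 3 libraries and 1.29% to 1.54% in the others, while the members held 5.10% to 6.03% and 5.62% to 6.14%.

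**Figure D4:**
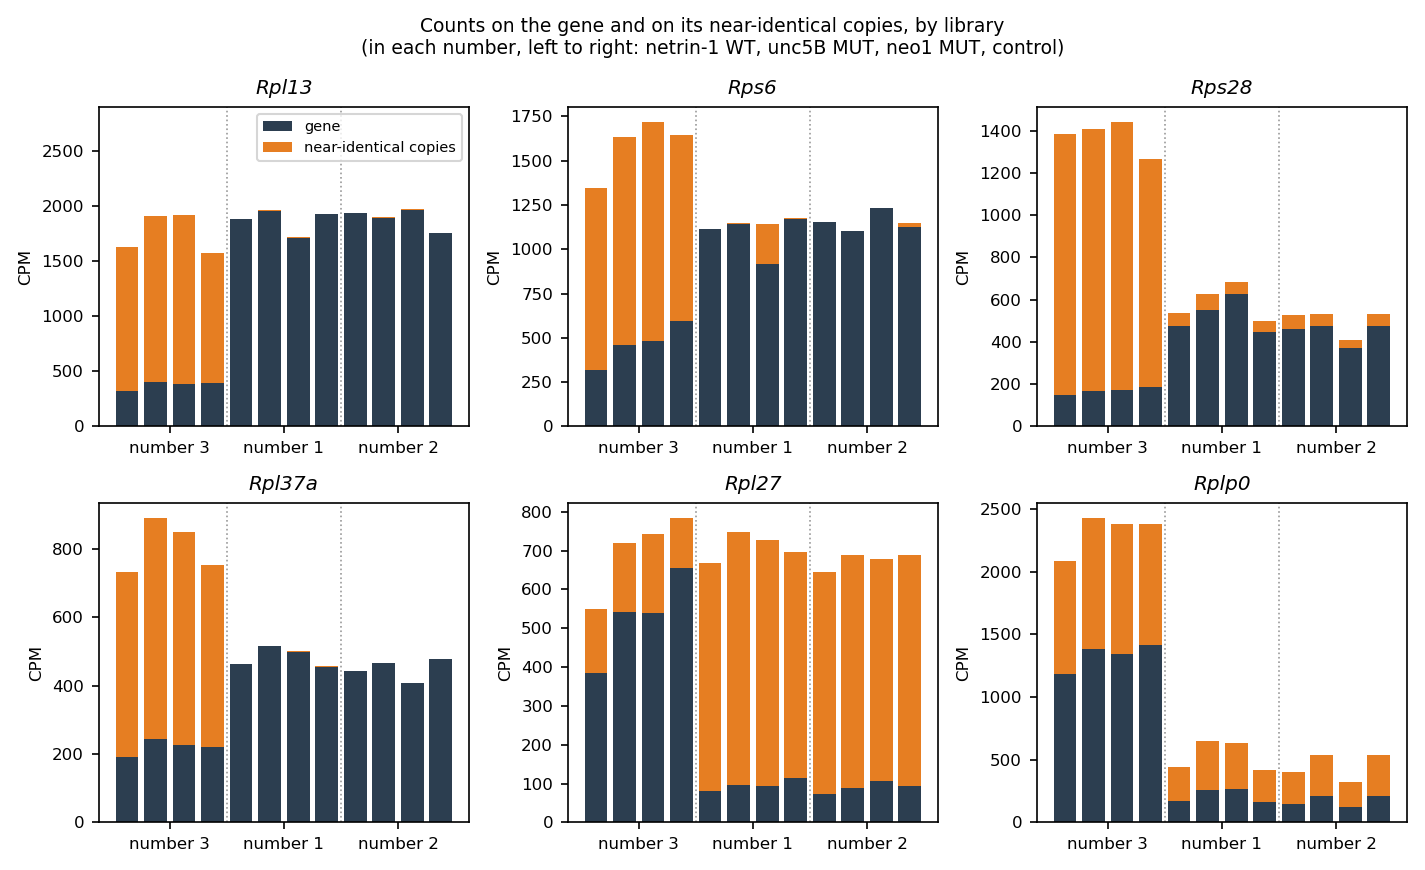
CPM of 6 ribosomal protein genes (dark) with the summed CPM of their near-identical copies stacked on top (orange) in each library, number 3 at the left. For Rpl13 the bar of gene plus copies averages 1759 CPM in number 3 and 1882 CPM in the others although the gene alone averages 376 and 1880 CPM; for Rpl27 the gene and its copies trade places; for Rplp0 both parts are higher in number 3.

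With the counts of copies added to their gene, the standard deviation over members of the log2 ratio of number 3 to the others fell to 0.65, against 1.11 for the genes alone, and 16 members, against 29, were past 1 in size. Rpl13 plus copies was at -0.09 ± 0.08 (edgeR adjusted p = 0.313), Rpl36a at -0.02 ± 0.08 (adjusted p = 0.816) and Rpl27 at 0.01 ± 0.08 (adjusted p = 0.901). Rps6 was at 0.46 ± 0.07 and Rps28 at 1.35 ± 0.10, with the sign turned. Of the 24 members that fell as genes alone, 13 were above 0 with their copies, and 4, Rpl23, Rps14, Rps23 and Rps24, still passed as lower. Of the 38 that rose, 34 still passed as higher: Rps15a plus copies was at 2.41 ± 0.11, Rpl18 at 2.29 ± 0.06, Rplp0 at 2.26 ± 0.14 and Rpl6 at 2.08 ± 0.07. The count with copies was 51 higher and 5 lower, against 31.7% of all genes higher and 30.9% lower in that fit, with a median of 0.44. More than 50% of the counts of gene and copies stood on the copies in 24 members in number 3 and in 15 members in the others.

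**Figure D5:**
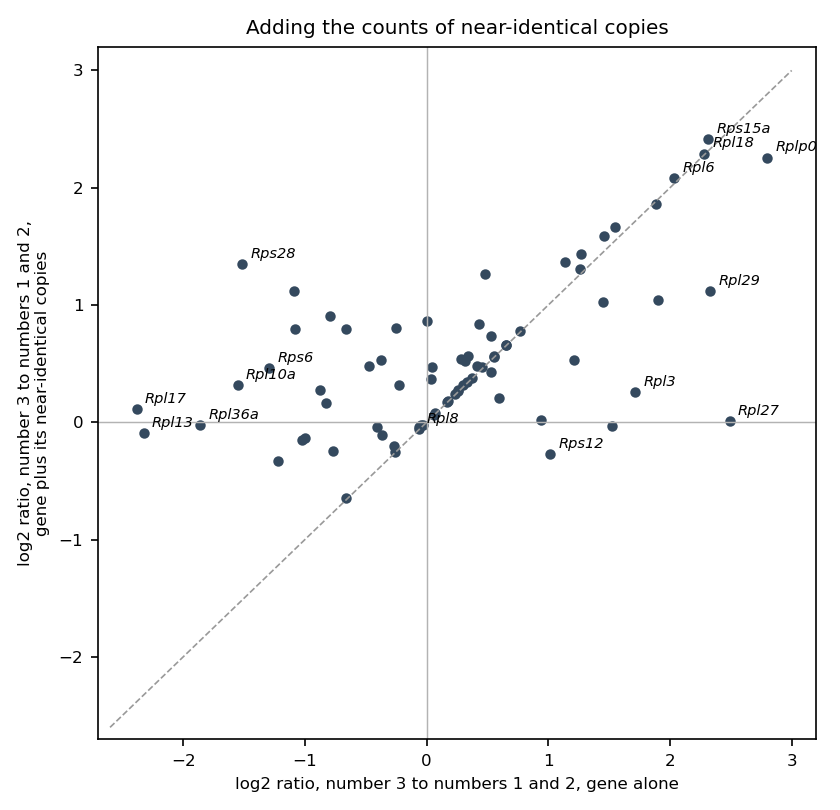
Log2 ratio of number 3 to numbers 1 and 2 for each ribosomal protein gene alone (x axis) and with the counts of its near-identical copies added (y axis); the dashed line marks equal values. Rpl13, Rpl17, Rpl36a and Rpl27 lie near 0 on the y axis, between -0.09 and 0.11, while Rps15a, Rpl18, Rplp0 and Rpl6 stay above 2.

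The change with number was larger in genes with little unique sequence. The median size of the log2 ratio was 1.05 in the 24 members with no unique stretch of 100 coding bases, 0.72 in the 14 with up to 25%, 0.78 in the 16 with 25% to 50% and 0.26 in the 21 with more. Across 75 members, Pearson's r between the size of the ratio and the unique share was -0.32 and Spearman's rho was -0.41, given as a description of genes that share libraries. Rplp0, with 80.0% of its stretches unique, was an exception, and so was Rps9, with 66.3% and a log2 ratio of 1.27. What the number stands for, and whether library preparation, read length or mapping differed with it, was not tested.

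The direction of the members' shift with number depends on the scaling. With library totals in place of the trimmed mean of M-values, the median of all genes moved by over 0.1, to -0.51, the median of members was -0.21, and 22 members were called higher and 38 lower, against 19.9% of all genes higher and 49.7% lower. Relative to the median of all genes, the members were thus 0.30 higher in both.

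Related genes also differed with number. Of 12 further ribosomal genes and relatives fixed by name (Rps3a1, Fau, Rps27rt and paralogs such as Rpl22l1 and Rpl39l), 5 rose and 2 fell with number 3. Rpl22l1, a paralog of Rpl22, averaged 614 CPM in number 3 and 112 CPM in the others (log2 fold change 2.45 ± 0.12, edgeR adjusted p = 2.76e-08), while Rpl22 itself did not pass. Fau, the gene of a small-subunit protein fused to a ubiquitin-like domain, rose by 1.79 ± 0.07, and Rps27rt fell by 1.67. Rps27rt is also among the copies counted above, as it matches the coding sequence of Rps27 without a mismatch. Rps27 itself rose by 1.90 ± 0.25. Of 18 translation factors whose mRNAs carry TOP elements 12 rose and 3 fell, of 25 ribosome assembly genes 13 rose and 2 fell, and of 78 mitochondrial ribosomal protein genes 40 rose and 11 fell, each against 31.8% higher and 31.0% lower over all genes. Mitochondrially encoded mRNAs went the other way, with 2 of 13 higher and 7 lower. Of the 8 fibroblast markers 4 passed the filter on low counts, and 3 of them rose with number 3 (median log2 fold change of the 4, 0.87), while 3 of 10 stem cell markers rose and 2 fell, and of 8 primitive endoderm markers 1 rose and 1 fell. Their part in the change with number was not tested.

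In the group comparisons with the block, 5 of the 18 translation factors were called lower in netrin-1 WT (Pabpc1, Eif3h, Eif3e, Eif3l and Tpt1) and 5 in neo1 MUT (Pabpc1, Eif3h, Eif3e, Eif3l and Eif4b), and none in unc5B MUT. The same fit called 3.50%, 5.26% and 0.0285% of all genes. Of those called, all but Tpt1 are on chromosome 15, which holds 6 of the 18. Pabpc1, the poly(A)-binding protein, was at -0.67 ± 0.15 in netrin-1 WT and -0.61 ± 0.15 in neo1 MUT, and Eif3h, a subunit of initiation factor eIF3, at -0.64 ± 0.10 and -0.60 ± 0.10; without the block none of the 18 passed. Rpl39l, a paralog of Rpl39 on chromosome 16, was lower in neo1 MUT than in control, at -0.67 ± 0.13 (edgeR with the block, adjusted p = 0.0146), lower than in netrin-1 WT, at -0.63 ± 0.13 (adjusted p = 0.0301), and lower than in unc5B MUT, at -1.26 ± 0.13 (adjusted p = 0.000906). Without the block its adjusted p-values were 0.361, 0.665 and 0.0527. No gene of the ribosome assembly list was called in netrin-1 WT, and 1 of 25, Gnl3, was called lower in neo1 MUT.

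The start sites show what the members share in sequence that the choice by name did not use. RefSeq start windows (GRCm38.p6) were matched for 56 of the 76 members. A C followed by at least 4 further pyrimidines, a loose form of the TOP element, lay within 5 bases before to 20 bases after a start on the plus strand in 62.5% of members and in 33.6% of all 27025 genes with a window. CTTTCC, on the plus strand within 20 bases of a start, was found in 17.9% of members and 2.30% of all genes. CCGGAAG, a core of the sites bound by ETS family factors, lay on either strand between 250 bases before and 50 after a start in 41.1% of members and 9.93% of all genes, and TATAAA on the plus strand, 35 to 10 bases before a start, in 0% and 2.32%. The other motifs searched were CTTCC, in the same window as CTTTCC, in 26.8% of members and 10.3% of all genes, AAGATGGCG, in the same window as CCGGAAG, in 5.36% and 1.64%, and CCAAT, on either strand in the 250 bases before a start, in 30.4% and 37.5%. CTTTCC and CTTCC can lie within the pyrimidine run of the loose TOP form. Windows of 20 bases to each side of the start are shown for 6 members as examples of the pyrimidine run, which is in capitals, at chr7:45718051-45718090 (Rpl18, plus strand), chr7:45128726-45128765 (Rpl13a, minus), chr7:141447631-141447670 (Rplp2, plus), chr2:39005112-39005151 (Rpl35, minus), chr7:109519175-109519214 (Rpl27a, plus) and chr14:18270967-18271006 (Rpl15, minus):
Rpl18: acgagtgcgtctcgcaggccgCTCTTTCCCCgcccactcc
Rpl13a: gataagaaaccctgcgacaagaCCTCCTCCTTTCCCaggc
Rplp2: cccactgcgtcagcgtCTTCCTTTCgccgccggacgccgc
Rpl35: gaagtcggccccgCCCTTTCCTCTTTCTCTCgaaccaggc
Rpl27a: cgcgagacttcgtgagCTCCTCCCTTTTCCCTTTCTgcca
Rpl15: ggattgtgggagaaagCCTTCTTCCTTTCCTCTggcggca
Among these 6, the log2 ratio of number 3 to the others was 2.28 for Rpl18, 1.89 for Rpl35, 1.26 for Rpl13a, 0.94 for Rpl27a, 0.32 for Rplp2 and -0.66 for Rpl15. With copies added, these values were 2.29, 1.86, 1.31, 0.02, 0.52 and 0.79. A match is a description of letters and not of a site in use.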

How the data were processed

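Total RNA of 12 libraries was sequenced; per the submitters' processing notes, FastQC 0.11.5, STAR 2.5.2b, Bowtie2, Bowtie, R 3.3.2 and DESeq2 were used, with roles not stated, and with the counting tool not given in the sources used here. The authors' deposited raw table holds estimated counts, mostly not whole, which were rounded; a test for plain counts had been planned. The deposited normalized table was not used. The authors' deposited comparison table gives log2 fold changes and p-values, quoted where named. Columns that matched no sample numbered 0.

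Genes were filtered with filterByExpr and tested in edgeR 4.0.16 (quasi-likelihood, trimmed mean of M-values, all 12 libraries, Benjamini-Hochberg over 21053 genes, threshold 0.05) on R 4.3.3, with limma 3.58.1 and DESeq2 1.42.0 as alternatives. CPM use the scaled totals; the log2 prior count was 2. SE is the log2 fold change over the root of its F. Group comparisons had no block as the main fit; the number comparisons fitted group and number. Same-numbered libraries of different groups deviated together (correlation of deviations from group means 0.58 to 0.88 in 18 pairs), which meets the minimum for taking the numbers to pair the libraries, and blocked values are printed. Libraries numbered 1 and 2 of different groups did so nearly as much (0.49 to 0.76 in 12 pairs), so the correlation mainly sets number 3 apart and does not show a pairing within numbers 1 and 2. Copies were found with BLAST 2.17.0 against GENCODE M21 transcripts. The fit was tested on simulated data.

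Members were named by a fixed rule: those passing in a group comparison with or without the block (at most 3 per direction), the 6 largest rises and 6 largest falls with number 3, the 4 highest and 4 lowest levels per length, 11 fixed for their roles, and those not overlapping control with a blocked log2 fold change over 0.5. Other members were named after their values were seen. Members and lists were chosen with earlier results of these data known. Values of some single genes are not reported here.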

Additional observations from a re-analysis of the deposited data

How the results depend on the processing

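Without the block no member was called in any group comparison, and the replicate block gave 2, 1, 1 and 1 members in netrin-1 WT against control, neo1 MUT against control, unc5B MUT against netrin-1 WT and neo1 MUT against unc5B MUT; the pairing changed no other call of a member; calls of genes outside the members that it changed are given with those genes. DESeq2 without the block called 1 in each of these 4 comparisons, Rpl8 each time, and limma-voom called none. The block with copies found by sequence, chosen after seeing the data, gave 1, 1, 2 and 1. Leaving out 1 replicate under the block, also added later, gave 0 to 2 members in netrin-1 WT against control, 0 to 1 in neo1 MUT against control, 0 to 3 in unc5B MUT against netrin-1 WT and 0 to 2 in neo1 MUT against unc5B MUT. Rpl27 in netrin-1 WT against control, at -0.68 without the block, turned to 0.78 without control replicate 3 and ran from -1.90 to 0.78 over the left-out replicates. The members' median in unc5B MUT against control was 0.09 without the block and then ran from 0.030 to 0.19 over the left-out replicates. For number 3, the median of 0.26 was 0.20 without the filter, 0.32 with pseudogenes named for the member added, 0.44 with copies added and -0.21 with library totals alone. In the count with named pseudogenes added, Rpl17, Rpl36a, Rpl10a and Rps6 turned to 0.10, 0.28, 0.31 and 0.46 and Rpl27 to -0.40. With copies found by sequence, Rpl17, Rpl10a, Rps28 and Rps6 turned to 0.11, 0.32, 1.35 and 0.46. With named pseudogenes, the share of counts was 6.32% in netrin-1 WT, 6.85% in unc5B MUT, 6.80% in neo1 MUT and 6.61% in control cells. The signs turned by added counts follow from that addition; for the other changes the cause was not tested. Number 3 and depth cannot be told apart, as its 4 libraries were the shallowest.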
